A study of Homo sapiens with 6 samples.

Results

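The 3 microRNA (miRNA) hairpins described here are hsa-mir-101-1 and hsa-mir-101-2, which give the same mature miR-101-3p, and hsa-mir-3928, which gives miR-3928-3p. They were picked by name from a table of 147 hairpins, with earlier results of these data known. The main 5′ end of their product had to lie at offset 0 in the DICER-WT libraries. Their variation score had to be lower with DICER-delHelicase than with DICER-WT. The score difference is therefore a description of how they were chosen, and no test was run on it. The libraries are small RNAs of HCT116 DICER-KO cells, a human colorectal carcinoma line without its own DICER. These cells received the pXG-DICER-WT plasmid (DICER-WT_rescue, 3 samples) or the plasmid for DICER without its helicase domain (DICER-delHelicase rescue, 3 samples), and RNA was taken 48 h after transfection. Both groups share the knockout, and DICER came from a transfected plasmid in both. Whether these were separate cultures is not stated in the labels.

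The deposited table gives 1 variation score per hairpin and construct, with no value per sample. Neither its formula nor its depth is stated, nor how the 3 samples were combined. Values per construct below are the authors' and carry no error, interval or test, and no difference between constructs could be checked against replicates. The offset was read as the place of the main 5′ end, in nucleotides, relative to the reference end of the miRNA, a reading taken from the column header alone.

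DICER is the RNase III enzyme that cuts a precursor miRNA near its terminal loop. The cut on the 3′ arm sets the 5′ end of the 3p miRNA, and with it the seed, the stretch near that end that pairs with target mRNAs. A product whose 5′ end is shifted by a single base carries another seed. The helicase domain of DICER lies towards the loop end of a bound precursor. miR-101 is known for repressing EZH2, the histone methyltransferase of Polycomb repressive complex 2.

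The hairpins are printed here because their structure is described below. They are the deposited sequences, 5′ to 3′, with the 3p miRNA in capitals, as located with the mature sequences of RefSeq (build GRCh38.p14).
hsa-mir-101-1: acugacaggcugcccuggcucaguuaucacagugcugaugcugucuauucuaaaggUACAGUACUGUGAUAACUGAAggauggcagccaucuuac
hsa-mir-101-2: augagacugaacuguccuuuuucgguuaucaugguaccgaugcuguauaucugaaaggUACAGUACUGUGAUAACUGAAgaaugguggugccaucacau
hsa-mir-3928: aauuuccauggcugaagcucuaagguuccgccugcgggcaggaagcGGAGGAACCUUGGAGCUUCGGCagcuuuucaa

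Each deposited hairpin extends the RefSeq hairpin by 10 bases on both sides. The RefSeq hairpin of mir-101-1 lies at chr1:65058434-65058508 on the minus strand, where GENCODE release 29 lists no other gene. That of mir-101-2 lies at chr9:4850297-4850375 on the plus strand, inside the gene RCL1 and outside its exons, with the antisense transcript AL158147.1 on the other strand. That of mir-3928 lies at chr22:31160062-31160119 on the minus strand, again with no other gene listed.

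The mature miRNAs are shown with the seed (bases 2 to 8) in capitals. Those of miR-199a-3p and miR-330-3p are added because their hairpins are set against the 3 hairpins below.
miR-101-3p: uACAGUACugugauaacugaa
miR-3928-3p: gGAGGAACcuuggagcuucggc
miR-199a-3p: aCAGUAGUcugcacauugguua
miR-330-3p: gCAAAGCAcacggccugcagaga

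The seeds ACAGUAC of miR-101-3p and GAGGAAC of miR-3928-3p are unrelated. A 5′ end 1 base upstream would give the seed UACAGUA from either mir-101 hairpin and GGAGGAA from mir-3928. An end 1 base downstream would give CAGUACU and AGGAACC. The table does not say which ends made up the score, so no share of reads can be given to any of these seeds.

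The hsa-mir-3928 hairpin had a variation score of 0.513 with DICER-WT. Under DICER-delHelicase it was 0.108, a difference (delHelicase minus WT) of -0.405 and 79.0% below the DICER-WT value. For hsa-mir-101-1 the DICER-WT score was 0.385 and the delHelicase score 0.225, a difference of -0.160. The hsa-mir-101-2 scores were 0.377 and 0.220, a difference of -0.157. Both mir-101 hairpins thus scored about equally low without the helicase domain, 41.6% and 41.7% below their DICER-WT values.

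A lower delHelicase score was uncommon in the table. It was found in 25.9% of all 147 hairpins and in 23.6% of the 140 with offset 0. A score lower by 0.1 or more was found in 11 of the 147 (7.48%) and in 6 of the 140 hairpins (4.29%). The 3 hairpins, 2 of them copies that give the same miRNA, are among these 6. Their choice set no size of decrease, but it was made by name with earlier results of these data known. Among the 140, mir-3928 had the rank 3 from the top in DICER-WT score and the rank 83 in delHelicase score. For mir-101-1 the ranks were 9 and 49, and for mir-101-2 they were 11 and 51. As differences, mir-3928 was the lowest of the 140 and the mir-101 hairpins followed at ranks 3 and 4. As ratios of delHelicase to DICER-WT the order was another: mir-3928 (0.210) had rank 5 from the bottom, mir-101-2 (0.583) rank 13 and mir-101-1 (0.584) rank 14. Several hairpins with low DICER-WT scores had smaller ratios.

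**Figure D1:**
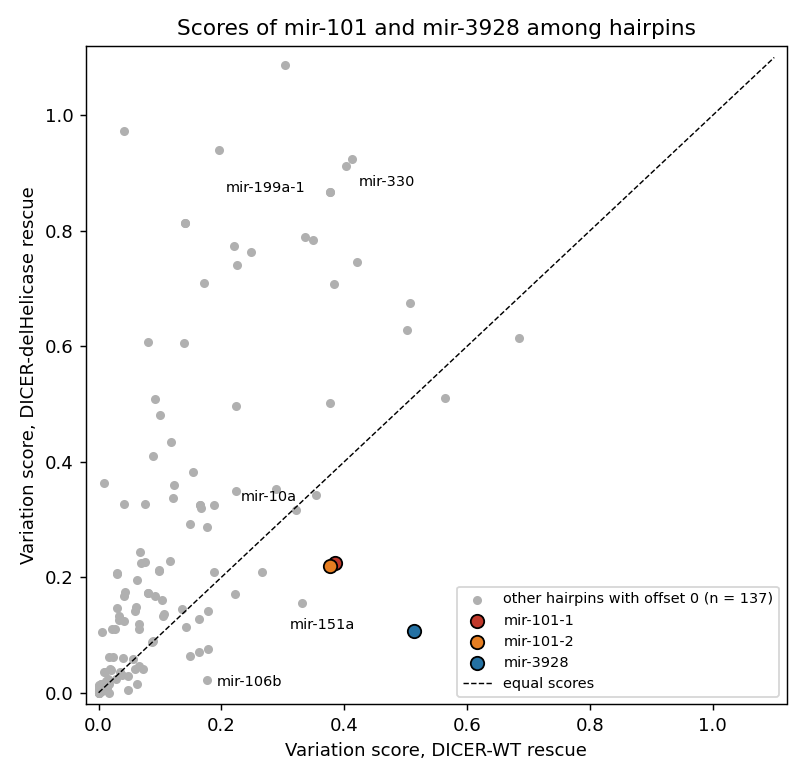
Variation score with DICER-WT (x axis) and with DICER-delHelicase (y axis), both without units, for the 140 hairpins with offset 0, 1 point per hairpin and no replicate error. The dashed line marks equal scores. mir-3928 (0.513 and 0.108) and both mir-101 hairpins lie below it on the right, where few other hairpins do.

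The hairpins next to mir-101 in the order of differences were mir-151a above it in size (0.331 with DICER-WT, 0.155 with DICER-delHelicase) and mir-106b just below it (0.177 and 0.0215), followed by mir-125a (0.178 and 0.0760). The mir-106b and mir-125a hairpins started from DICER-WT scores less than those of mir-101. At the boundary of any decrease stood mir-148b on the lower side (difference -0.000234) and mir-15b on the higher side (0.000442), differences far below those of the 3 hairpins.

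By the distance between pairs of scores, over the 2 constructs and among hairpins with offset 0, the hairpin most like mir-101 was mir-151a (distance 0.0840). Next came mir-10a (0.112), with scores of 0.321 and 0.316, then mir-760 (0.117), with 0.265 and 0.208. The last of the 5 nearest were mir-625 (0.123), with 0.354 and 0.342, and mir-135b (0.161), with 0.288 and 0.354. The differences of these 5 ran from -0.176 to 0.0653, so even near neighbours did not all share the sign. The hairpins nearest to mir-3928 were mir-101-1 (0.173) and mir-101-2 (0.176), followed by mir-151a (0.188), mir-760 (0.267) and mir-625 (0.283). mir-3928 had no neighbour as close as mir-101 had. The distances use the scores by which mir-101 and mir-3928 were chosen, so their closeness is no evidence of a group.

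A high DICER-WT score leaves room for a lower one, so the 3 hairpins were set beside those that started from a like score. Of 19 hairpins with offset 0 and a DICER-WT score from 0.3 to 0.6, 7 (36.8%) had a lower delHelicase score. Without the 3 hairpins, 4 of the remaining 16 were lower and 12 higher, with a median difference of 0.326 and a median delHelicase score of 0.727. The delHelicase scores of mir-3928 and of both mir-101 hairpins were 3 of the 4 lowest in the list, with mir-151a as the other. The other decreases were small: -0.0539 for mir-93, -0.0118 for mir-625 and -0.00460 for mir-10a. The largest increases were those of mir-339 (0.304 and 1.09) and mir-500a (0.412 and 0.924). The median and counts describe deposited scores and are no test of the 3 hairpins, which were chosen by these values. Copies of the same miRNA, as for mir-101 and mir-199a, were counted separately here although they can share reads.

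**Figure D2:**
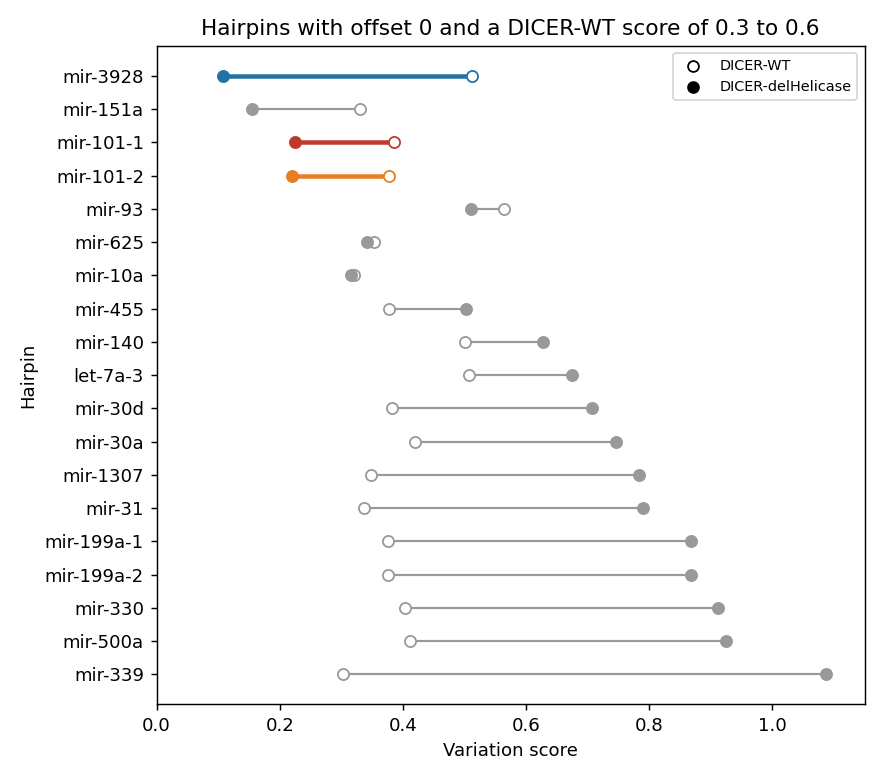
Variation score (x axis, no units) of the 19 hairpins (y axis) with offset 0 and a DICER-WT score from 0.3 to 0.6. Open points are DICER-WT, filled points DICER-delHelicase, and lines join the scores of a hairpin. The coloured mir-3928, mir-101-1 and mir-101-2 run to the left, while 12 hairpins run to the right.

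miR-199a-3p gives a contrast at matched start. Its sequence begins with ACAGUA, which stands 1 base further in within miR-101-3p, so that both miRNAs hold this stretch in their first 9 bases. Its hairpins mir-199a-1 and mir-199a-2 had scores equal to each other with both constructs, so they are no separate observations. They had the DICER-WT score 0.377, as mir-101-2 had. With DICER-delHelicase they scored 0.868, against 0.220 for mir-101-2. Both mir-199a and both mir-101 hairpins were the only ones with ACAGUA in that window among the 129 hairpins with offset 0 and a RefSeq mature sequence.

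The mir-101 hairpins can hardly be counted as separate observations. The whole of miR-101-3p (21 bases), the 5 bases before it and the base after it are the same in both, an identical run of 27 bases. Their RefSeq hairpins matched at 59 of 79 aligned positions (74.7%). Reads of the 3p miRNA that stay within the shared run cannot be assigned to a copy. Between the copies, the DICER-WT scores were 0.00793 apart and the delHelicase scores 0.00492. No other hairpin of the table contained this run, and miR-3928-3p was found in mir-3928 alone.

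The table also carries a Yes or No class headed 2-nt and said to come from the DICER-WT isomiRs. mir-101-1 and mir-3928 had the entry Yes and mir-101-2 had No. These copies, whose 3p miRNA is identical, were classed differently. This was not rare: of the 16 miRNAs with several hairpins, 8 had copies of both classes. In none of the 8 did the copies differ in the sign of the score difference. Copies can share reads of the same miRNA, so this agreement says little about the class. Among hairpins with offset 0, the delHelicase score was lower in 16 of 69 with Yes (23.2%) and in 17 of 71 with No (23.9%).

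To see what the class and the 3 hairpins share in structure, the 129 hairpins with offset 0 and a RefSeq mature sequence were folded in silico and read at the 5′ end of the 3p miRNA, called the cut here. mir-151a, the hairpin nearest to mir-101 in its scores, is not among these 129, and its structure was not analysed here. mir-101-1 was predicted with a terminal loop of 12 bases closed by a helix of 4 base pairs (bp). Its cut lay in the middle of that helix, 2 bases from the loop. An unpaired base on the 5′ arm followed, and then an unbroken helix of 18 bp that holds most of the miRNA. mir-101-2 had the same loop of 12 bases, the same helix of 4 bp and the same single unpaired base on the 5′ arm. There, a lone pair and a mismatch of 1 base on either arm came before a helix of 20 bp. mir-3928 had a loop of 9 bases, again a closing helix of 4 bp with the cut 2 bases from the loop, then 2 unpaired bases on the 5′ arm against 1 on the 3′ arm, and an unbroken helix of 19 bp.

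**Figure D3:**
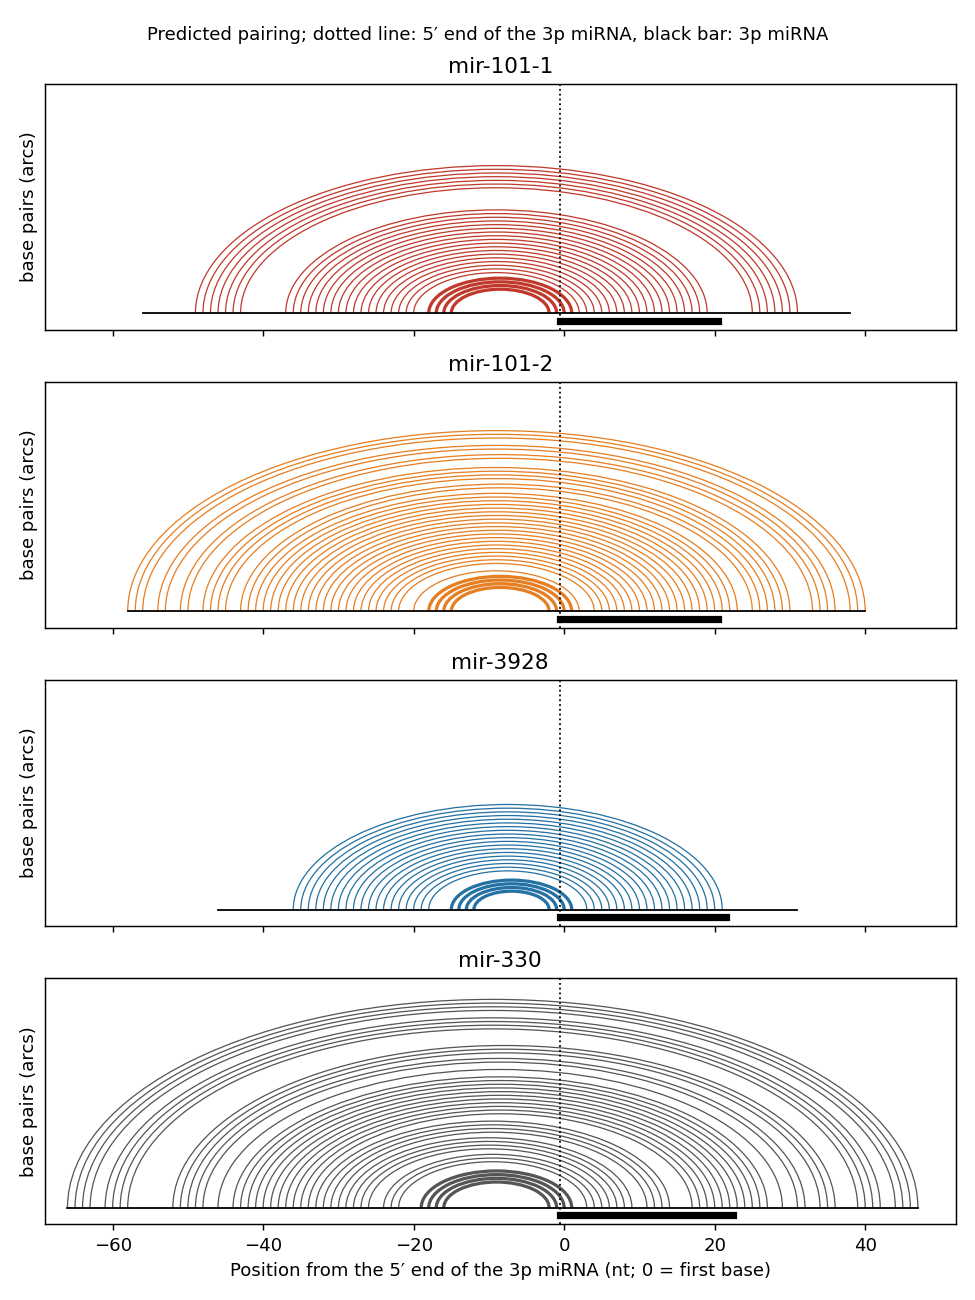
Predicted base pairs (arcs) of mir-101-1, mir-101-2, mir-3928 and, for contrast, mir-330, by position in nucleotides from the first base of the 3p miRNA (x axis; the height of an arc has no scale). The black bar is the 3p miRNA, the dotted line its 5′ end, and thick arcs mark the 4 pairs next to the terminal loop. All 4 hairpins have the cut in the middle of that short helix, and the first 3 have a long unbroken helix beyond it.

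The predicted structures of mir-101 and mir-3928 have in common a cut 2 bases from the terminal loop, which had 12 bases in mir-101 and 9 in mir-3928. The median loop of the other 126 hairpins with offset 0 and a RefSeq mature sequence was 6 bases (quartiles 4 and 9). A loop of at least 12 bases was found in 12 of them, and one of at least 9 bases in 33. Their median distance from the cut to the loop was 5 bases, and 110 of the 126 had a distance above 2. In mir-199a-1 and mir-199a-2 this distance was 10 and 7 bases. The longest unbroken helix across the miRNA had a median of 11 bp in the others (quartiles 8 and 14). In 12 of the 126 it was longer than the 18 bp of mir-101-1. The number of paired miRNA bases was 20 of 21 for both mir-101 hairpins and 21 of 22 for mir-3928, against a median of 19 in the others. Such numbers were common: 53 of the 126 others had at least 20 and 27 had at least 21.

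In base composition and stability the 3 hairpins were unlike each other. The miRNA was 33.3% G and C for miR-101-3p and 63.6% for miR-3928-3p, on either side of the median of 50.0% in the others. The predicted folding energy was -47.0 kcal/mol for mir-101-1, -32.2 for mir-101-2 and -41.5 for mir-3928. Only 9 of the 126 others had a weaker fold than mir-101-2. At 78 bases the mir-3928 hairpin was shorter than each of the 126. For the mir-101 hairpins RefSeq also lists the 5p miRNA. Its 3′ end left an overhang of 2 bases beyond the partner of the cut in mir-101-1 and of 1 base in mir-101-2.

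Pairing probabilities, which weigh all structures of a sequence, showed where the folds were less certain. At the 2 bases before the cut the probability of being paired was 0.962 and 0.971 in mir-101-1, and 0.983 and 0.986 in mir-3928. In mir-101-2 it was 0.732 and 0.950. Just further towards the loop, at the third base before the cut, it dropped to 0.0508, 0.132 and 0.000336 in mir-101-1, mir-101-2 and mir-3928. The median of the 126 others dropped there too, from 0.955 at the second base before the cut to 0.427. Less certain bases lay on the 5′ arm of mir-3928. The partner of its first miRNA base was paired with a probability of 0.648, and a base drawn as unpaired there with 0.364. In mir-101-2 the 5′ base of the lone pair had 0.546, and the mismatched base of the miRNA 0.342. The bases of miR-101-3p and miR-3928-3p from the fifth to the seventeenth were paired with a probability above 0.99 in all 3 hairpins. The median of the 126 others was also above 0.99 at each of these bases.

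**Figure D4:**
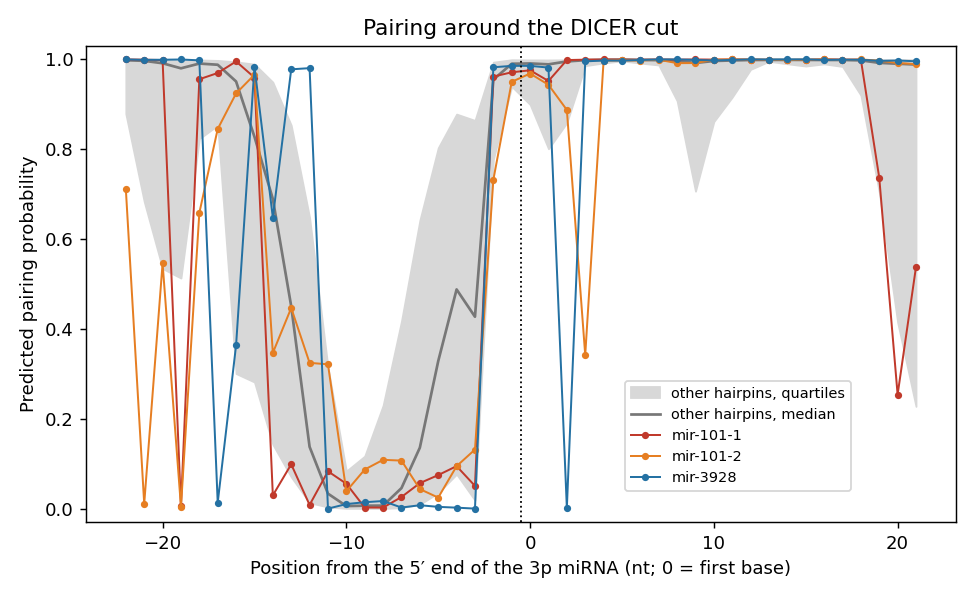
Predicted probability that a base is paired (y axis, 0 to 1) by position in nucleotides from the first base of the 3p miRNA (x axis, 0 is that base). Coloured lines are mir-101-1, mir-101-2 and mir-3928, the grey line and band are the median and quartiles of the other hairpins. The coloured lines drop at the third base before the cut and stay near 1 through the middle of the miRNA. The grey line does the same, with a smaller drop.

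The 2-nt class went with the predicted structure. Of 57 hairpins with exactly 2 paired bases between the cut and the nearest unpaired base on the loop side, 54 had the class Yes, against 12 of the 72 other hairpins. mir-101-1 and mir-3928 are among the 54. mir-101-2 was one of 3 exceptions with No, the others being mir-1301 and mir-378a. The class No was found in 7 of 59 such hairpins when the centroid structure was used and in 5 of 60 when the fold was made at 25 °C. mir-101-2 had 2 such paired bases in each fold setting used. How the authors assigned the class is not stated. If the class counts these same bases, its match with the predicted structure follows from its definition and is no separate result.

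In most of those hairpins the nearest unpaired base belongs to a bulge or internal loop, but in 17 it is the terminal loop itself, as in mir-101 and mir-3928. This set was chosen after its values were seen. Of the 14 others in it, the delHelicase score was lower in 6 (42.9%), higher in 6 and equal, at a score of 0, in mir-3187 and mir-676. Their median difference was 0. The background was 23.3% lower among the 129 hairpins, and among the 112 whose cut was not 2 bases from the loop it was 21 (18.8%), with a median difference of 0.0414. None of these 14 reached a decrease of 0.1, but most of them had DICER-WT scores below 0.1 and could not have done so. The nearest was mir-421, with 0.164 and 0.0706, followed by mir-501 (0.0483 and 0.0288) and mir-502 (0.0380 and 0.0313). The remaining decreases were close to no difference: -0.00460 for mir-10a, -0.00121 for mir-19b-1 and -0.000234 for mir-148b. The largest of the 6 increases was 0.508, for mir-330. Higher scores were found for mir-23b (0.0305 and 0.146), mir-181a-2 (0.00529 and 0.106) and mir-320c-1 (0.0807 and 0.173). No test was run on these counts.

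**Figure D5:**
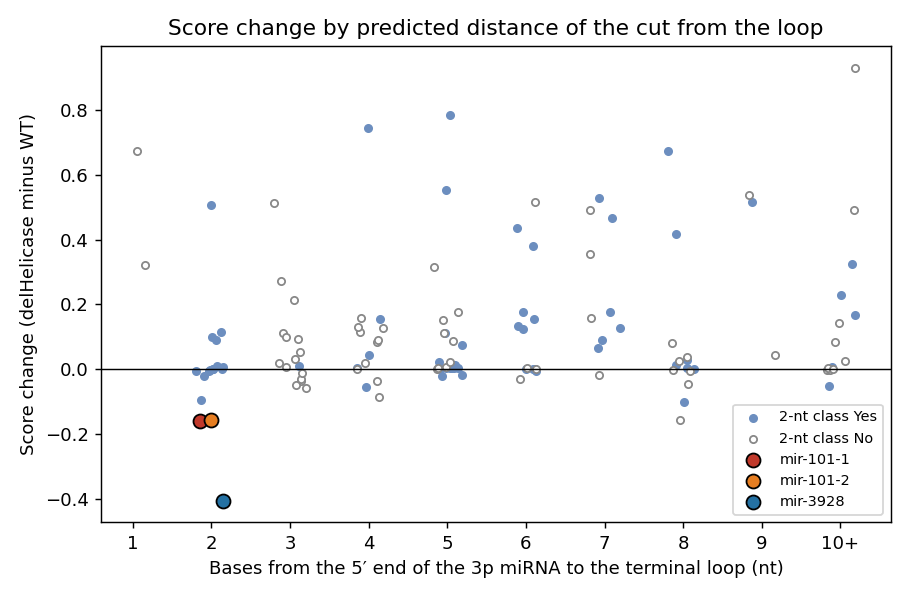
Score difference (delHelicase minus WT, y axis, no units) by the predicted number of bases between the 5′ end of the 3p miRNA and the terminal loop (x axis, nt; 10 or more drawn together, points spread sideways for legibility). Filled and open points are the 2-nt classes Yes and No of the other hairpins. The 3 coloured hairpins lie at 2 bases, below the other 14 points there. Most of these 14 had DICER-WT scores too low for a like decrease.

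The largest increase in that set was in a hairpin built like mir-3928 at the cut. mir-330 had a loop of 13 bases, a closing helix of 4 bp with the cut in its middle, and the same 2 unpaired bases on the 5′ arm against 1 on the 3′ arm. Its DICER-WT score, 0.403, lay between those of mir-101-1 and mir-3928. Its delHelicase score was 0.912, against 0.108 for mir-3928. The stems differ beyond the cut: in mir-330 the helices that follow are 3, 4 and 4 bp long before one of 11 bp, in place of the single helix of 19 bp in mir-3928. Among the 129 hairpins folded, a helix of at least 18 bp together with a cut 2 bases from the loop was predicted for mir-101, mir-3928 and mir-148b. The limit of 18 bp is the value of mir-101-1, and this pair of features was chosen after the values were seen. It is therefore no evidence of what goes with a lower score. For mir-148b the scores were near 0 with both constructs (0.00147 and 0.00124). Differences of both signs were found for a long helix without that cut: of 13 hairpins with at least 18 bp, 3 were lower (23.1%) and 10 higher. Their median difference was 0.152. The share lower was near the 23.3% among all 129 hairpins.

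Across the 129 hairpins the rank correlation (Spearman's rho) of the score difference was -0.32 with the loop size, 0.17 with the distance from the cut to the loop and 0.0066 with the length of the longest helix. These are descriptions over hairpins that share libraries and, for copies, reads.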

How the data were processed

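Small RNA libraries were made by the authors with a TruSeq small RNA kit from the small RNA of 10 µg of total RNA, separated on a 12% urea gel, per the labels' protocols. The submitters' processing notes name cutadapt, Bowtie2, bedtools and the build GRCh38, without versions or settings. The variation score and the offset of the main 5′ end, also kept as a score, are values the authors deposited in a table of 294 lines, 1 per hairpin and construct, per the file headers. The class headed 2-nt is the authors' too.

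From these, differences and ratios between constructs, ranks and distances between pairs of scores were computed (Python 3.11.15, pandas 2.3.3). RefSeq mature sequences matched by name for 136 hairpins, 129 of them with offset 0. The last match in a hairpin was taken where a miRNA occurs more than once. Hairpins were folded with ViennaRNA 2.7.2 at 37 °C with dangling ends model 2, and the minimum free energy structure was read. The script that reads structures was tested on simulated hairpins. No test across samples was possible, since the table holds no value per sample.

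Hairpins named are the 3 hairpins, the 5 nearest pairs of scores, neighbours in the order of differences and at 0, hairpins with ACAGUA in the first 9 bases of the miRNA and the extremes of the list with a DICER-WT score from 0.3 to 0.6. Members and lists were chosen with earlier results of these data known. The structural comparisons, mir-330 and the sets by cut and helix were chosen after their values were seen. Alternatives changed the centre of the differences, the counting of copies, the size of a decrease and the folding settings.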

Additional observations from a re-analysis of the deposited data

How the results depend on the processing

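The differences of mir-101-1, mir-101-2 and mir-3928 are negative by their choice, and the alternatives run could not have changed that sign. Less the median difference of all hairpins (0.0261), they were -0.187, -0.184 and -0.431. Less the median of the 19 hairpins with offset 0 and a like DICER-WT score (0.167), they were -0.327, -0.324 and -0.572. These shifts follow from the subtraction, and the 19 hairpins include the 3. The mean of both mir-101 copies was -0.159. The share of hairpins with a lower delHelicase score, 25.9%, became 11.6% when only decreases of at least 0.05 counted, a stricter rule by construction. With 1 value per miRNA it was 27.6%. For each of the 3 hairpins, 4 predicted quantities (paired bases on the loop side of the cut, loop size, paired miRNA bases and longest helix) were the same in the centroid structure, at 25 °C, with dangling ends model 0 and, added after the data were seen, without the flanks. The count of 6 of 14 other hairpins lower with the cut 2 bases from the loop was 8 of 23 in the centroid structure, 4 of 10 at 25 °C and 6 of 14 with dangling ends model 0, alternatives also added later. Of hairpins with 2 paired bases on the loop side of the cut, the class No was found in 3 of 57, against 7 of 59, 5 of 60 and 3 of 57 in the same order of alternatives, which were again added later. At 25 °C mir-148b no longer had that cut together with a helix of at least 18 bp.

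No paired analysis was possible because no replicate has a value of its own. Leaving out replicates and a replicate block were not run for the same reason. Depth is not stated, so the precision of no score is known, those of mir-101 and mir-3928 included. Little can be read from scores near 0.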
